A study of Homo sapiens with 4 samples.

Results

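The genes described here encode aminoacyl-tRNA synthetases, chosen by name from the deposited gene table: 36 genes of the 58735 listed, of which 20 encode cytosolic enzymes and 16, with symbols ending in 2, mitochondrial enzymes. All 36 were among the 16262 genes that reached 1 CPM (the customary unit of read counts relative to library size, here TMM-scaled) in at least 1 library. The RNA came from HEK293T, a cell line of human embryonic kidney origin, after CRISPR disruption of PBRM1, which encodes a PBAF chromatin remodeller subunit. Cells were taken 48 h after transfection with GFP-PBRM1, as wild type (WT) or carrying P1048R, T1202K or C1233W, amino acid changes in the bromo-adjacent homology (BAH) region, per the labels. The disruption and the GFP tag were thus common to all 4 groups, and cells without a plasmid were not analysed here. Each construct had 1 library, so no difference below has a replicate check and no p-value is given. The 3 comparisons against WT share the WT library.

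An aminoacyl-tRNA synthetase joins an amino acid to its tRNA, and the charged tRNA is what the ribosome reads. Most amino acids have a cytosolic enzyme and a separate nuclear-encoded mitochondrial one, whereas GARS and KARS serve both compartments, and EPRS carries the glutamyl and prolyl activities in 1 protein. When uncharged tRNA builds up, the kinase GCN2 (EIF2AK4) phosphorylates eIF2, translation slows, and ATF4 is made, a transcription factor that binds the C/EBP-ATF response element and raises amino acid transport, synthesis and charging genes, many cytosolic synthetases among them. Several cytosolic synthetases are also bound in a multisynthetase complex held together by the scaffold proteins AIMP1, AIMP2 and EEF1E1 (AIMP3).

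Because the known ATF4 targets among the cytosolic enzymes are treated as a group below, the element itself was looked for at their starts. RefSeq promoter windows (GRCh38.p14, from 250 bases before to 50 after the start) were found for 16 of the 20 cytosolic and 14 of the 16 mitochondrial genes. The core TGATGNAA, sought on both strands, lay in windows of 7 cytosolic genes and of 1 mitochondrial gene, YARS2, and in 3.62% of all 35116 windows. All 7 belonged to the 10 known ATF4 targets that had a window, and none to the 6 other cytosolic genes with one. The longer TGATGNAAT, which contains the core, was in 0.991% of all windows and in those of GARS and TARS. The 7 stretches are shown 5′ to 3′ on the strand that carries the core, which is in capitals.
AARS: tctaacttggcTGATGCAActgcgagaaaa
CARS: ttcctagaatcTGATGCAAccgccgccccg
GARS: ggctcggagcaTGATGAAAtcgccgcgtaa
IARS: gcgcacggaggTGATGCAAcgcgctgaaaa
MARS: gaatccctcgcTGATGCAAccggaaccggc
NARS: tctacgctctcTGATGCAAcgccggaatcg
TARS: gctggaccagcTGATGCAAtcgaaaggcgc
In GRCh38 they are, in this order, chr16:70289675-70289704 (plus strand), chr11:3057407-3057436 (plus), chr7:30594834-30594863 (minus), chr9:92293692-92293721 (plus), chr12:57488053-57488082 (minus), chr18:57621804-57621833 (minus) and chr5:33440956-33440985 (minus). Counted along the gene from its start, the core of AARS began at base -187, that of GARS at -33, of IARS at -13, of MARS at -4 and of CARS at -2, while those of TARS and NARS began at 2 and 14, inside the transcript. The match describes the letters of these windows and says nothing of binding in these cells.

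The libraries held 10246250 to 11205322 counted reads, and the synthetases together took 0.484% of them in WT, 0.608% in P1048R, 0.592% in T1202K and 0.550% in C1233W. PBRM1 itself was at 22768 CPM in WT, 8805 in P1048R, 15262 in T1202K and 60509 in C1233W, so the amount of construct RNA and the substitution cannot be told apart. All 8 markers of the HEK293 lineage (PAX2, VIM and KRT18 among them) had reads in every library, with a summed level of 1340, 898, 1122 and 1134 CPM in the order WT, P1048R, T1202K, C1233W. Summed markers of blood cells were at 2.68 to 4.60 CPM with CD3E and HBB at 0 in all, those of hepatocytes at 0.321 to 2.13 CPM, and those of fibroblasts and endothelium at 17.2 to 33.2 CPM with DCN at 0 in all but C1233W. In bulk RNA, fewer cells expressing a gene and less RNA per cell cannot be told apart.

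Cytosolic synthetase RNA outweighed mitochondrial synthetase RNA in every library, and the 2 compartments differed in which library was lowest. Cytosolic genes summed to 4467 CPM in the WT library (95% counting interval 4425 to 4510), 4928 with P1048R (4888 to 4968), 4889 with T1202K (4849 to 4930) and 4819 with C1233W (4777 to 4862). Mitochondrial genes summed to 837 CPM in the WT library (819 to 856), 782 with P1048R (767 to 798), 856 with T1202K (839 to 873) and 690 with C1233W (674 to 706). WT thus had the lowest cytosolic sum and C1233W the lowest mitochondrial sum, where the intervals hold nothing but counting error, as PCR copies are not independent molecules.

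Per kilobase of exon, TARS, the threonine enzyme, was the highest cytosolic gene by its geometric mean over the 4 libraries, at 75.0, 105, 96.5 and 108 CPM per kilobase in WT, P1048R, T1202K and C1233W. In WT alone EPRS (85.4) and RARS (81.3) were above it. CARS, the cysteine enzyme, was the lowest at 4.97, 11.4, 10.4 and 11.2. Among mitochondrial genes IARS2, the isoleucine enzyme, was highest at 59.0, 43.6, 49.3 and 48.4 CPM per kilobase, and SARS2, the serine enzyme, was lowest at 1.52, 1.61, 1.69 and 1.56. CARS thus lay above SARS2 but far below IARS2 in each library. Another gene, AC011455.2, overlaps 46.2% of the SARS2 exon bases on the same strand, and how such reads were counted is not known, so the low place of SARS2 is uncertain.

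**Figure D1:**
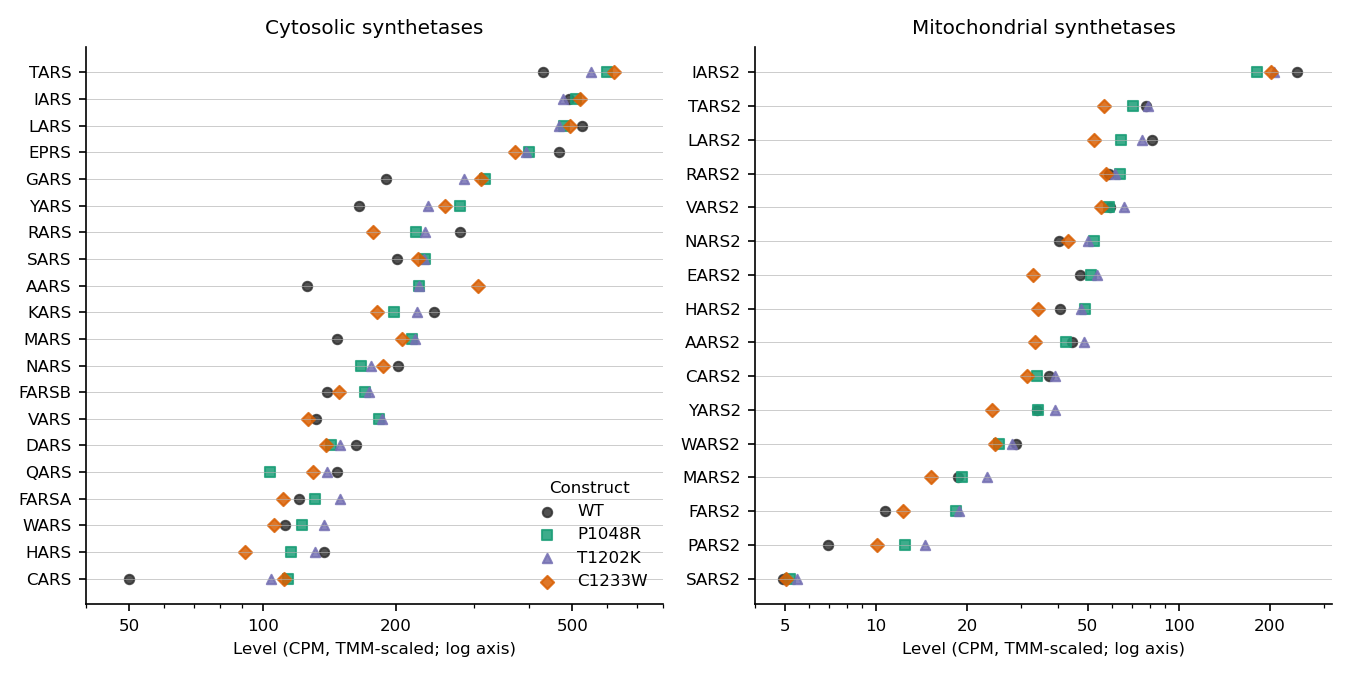
Level of each synthetase gene in the 4 libraries (CPM on a log axis, 1 point per library and construct), cytosolic genes on the left and mitochondrial genes on the right, ordered by mean level. The CARS and AARS points of WT lie apart to the left of the 3 mutant points, while for most mitochondrial genes the C1233W point is the leftmost.

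A ratio between libraries is given as log2 with its 95% counting interval, and a gene is called higher or lower when the ratio is at least 1.5-fold and the interval excludes 0. Against WT, the cytosolic genes called were AARS, CARS, GARS and YARS upward and HARS and RARS downward, and the mitochondrial ones were PARS2 and FARS2 upward and LARS2 downward. The other 27 of the 36 genes were called in no comparison against WT, and of these EARS2, YARS2 and MARS2 were called between mutants. The share of all kept genes past the same rule is given beside the counts by compartment.

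CARS, on the minus strand of chromosome 11 (chr11:3000922-3057613, ENSG00000110619), had 49.9 CPM in WT, 114 in P1048R, 105 in T1202K and 112 in C1233W. The 3 mutant libraries lay together, and WT stood apart below them. The log2 ratios to WT were 1.20 (1.04 to 1.35), 1.07 (0.91 to 1.23) and 1.17 (1.01 to 1.32), above 96.6%, 96.6% and 96.0% of all kept genes. CARS was the one cytosolic gene past 2-fold in P1048R and in T1202K, where 4.48% and 2.95% of all kept genes were that much higher.

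AARS, the alanine enzyme (minus strand, chr16:70252295-70289543, ENSG00000090861), had 126 CPM in WT, 225 in P1048R, 226 in T1202K and 305 in C1233W. Here WT was lowest, P1048R and T1202K did not differ beyond counting error, and C1233W was highest. The log2 ratio to WT was 0.84 (0.74 to 0.94) in P1048R, 0.84 (0.74 to 0.94) in T1202K and 1.28 (1.18 to 1.37) in C1233W, and C1233W was above each other mutant by 0.44 (0.36 to 0.51). AARS and CARS were the cytosolic genes past 2-fold in C1233W, against 4.19% of all kept genes.

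GARS, the glycine enzyme of both compartments (plus strand, chr7:30594681-30634033, ENSG00000106105), had 190 CPM in WT, 317 in P1048R, 285 in T1202K and 311 in C1233W. Its ratios of 0.74 (0.66 to 0.82) and 0.71 (0.62 to 0.79) passed the rule in P1048R and C1233W, and 0.58 (0.50 to 0.67) in T1202K lay just below 1.5-fold. YARS, the tyrosine enzyme (minus strand, chr1:32775237-32818153, ENSG00000134684), had 165, 279, 237 and 258 CPM in the same order of libraries. It was called in P1048R at 0.76 (0.67 to 0.85) and in C1233W at 0.65 (0.56 to 0.74), and stood at 0.52 (0.43 to 0.61) in T1202K. For both genes WT was the lowest library and P1048R the highest.

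MARS, the methionine enzyme, and TARS had the same order of WT against the mutants without reaching 1.5-fold. MARS was at 148 CPM in WT and at 207 to 220 in the mutants (log2 0.56, 0.58 and 0.49 in P1048R, T1202K and C1233W), and TARS at 429 CPM in WT and at 552 to 619 (0.48, 0.36 and 0.53). VARS, the valine enzyme, was at 132 CPM in WT, 183 in P1048R and 186 in T1202K, but at 127 in C1233W. For VARS, then, C1233W and WT did not differ beyond counting error (-0.06, -0.17 to 0.05), and C1233W lay below P1048R by a log2 ratio of -0.53 (-0.63 to -0.43) and below T1202K by -0.55 (-0.66 to -0.45).

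Downward, RARS, the arginine enzyme (plus strand, chr5:168486445-168519299), had 278 CPM in WT, 221 in P1048R, 232 in T1202K and 177 in C1233W. HARS, the histidine enzyme, had 137, 116, 131 and 91.5 CPM. C1233W was the lowest library for both, with log2 ratios to WT of -0.65 (-0.74 to -0.56) for RARS and -0.59 (-0.71 to -0.46) for HARS. Both calls are near the 1.5-fold limit: with the trend in GC content and transcript length removed RARS stood at -0.58 and HARS at -0.57, with library totals in place of scaled sizes at -0.52 and -0.45, and neither passed.

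By compartment, 4 of 20 cytosolic genes were higher than WT in P1048R and none lower, against 10.7% of all kept genes higher and 8.99% lower. In T1202K, 2 of 20 were higher and none lower (7.96% and 5.29% of all kept genes), and in C1233W 4 were higher and 2 lower (8.77% and 4.94%). With library totals in place of scaled sizes the C1233W split was 6 higher and none lower (12.8% and 2.43% of all kept genes on that scale), and with DESeq2 size factors 4 higher and 1 lower (9.3% and 4.47%). The median cytosolic log2 ratio was 0.12 in P1048R, 0.25 in T1202K and -0.07 in C1233W, beside -0.04, -0.01 and -0.01 over all kept genes, and the C1233W median turned to 0.06 on library totals. Counting any size, the interval lay above 0 for 11 and below 0 for 8 of 20 in P1048R, for 11 and 6 in T1202K, and for 8 and 9 in C1233W. Over all kept genes the shares were 23.9% above and 27.1% below in P1048R, 22.2% and 22.3% in T1202K, and 19.7% and 24.8% in C1233W. Such counts depend on the reads per gene. Genes were kept from 1 CPM, whereas the lowest cytosolic value was 49.9 CPM, so these shares are an unlike background. The quartiles of the cytosolic log2 ratios were -0.23 and 0.50 in P1048R, -0.12 and 0.50 in T1202K, and -0.19 and 0.50 in C1233W. Over all kept genes they were -0.35 and 0.32, -0.28 and 0.29, and -0.28 and 0.32. Both sets thus lay on both sides of WT. The 1.5-fold count in T1202K is near the background share, and those in P1048R and C1233W exceed it by a few genes.

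**Figure D2:**
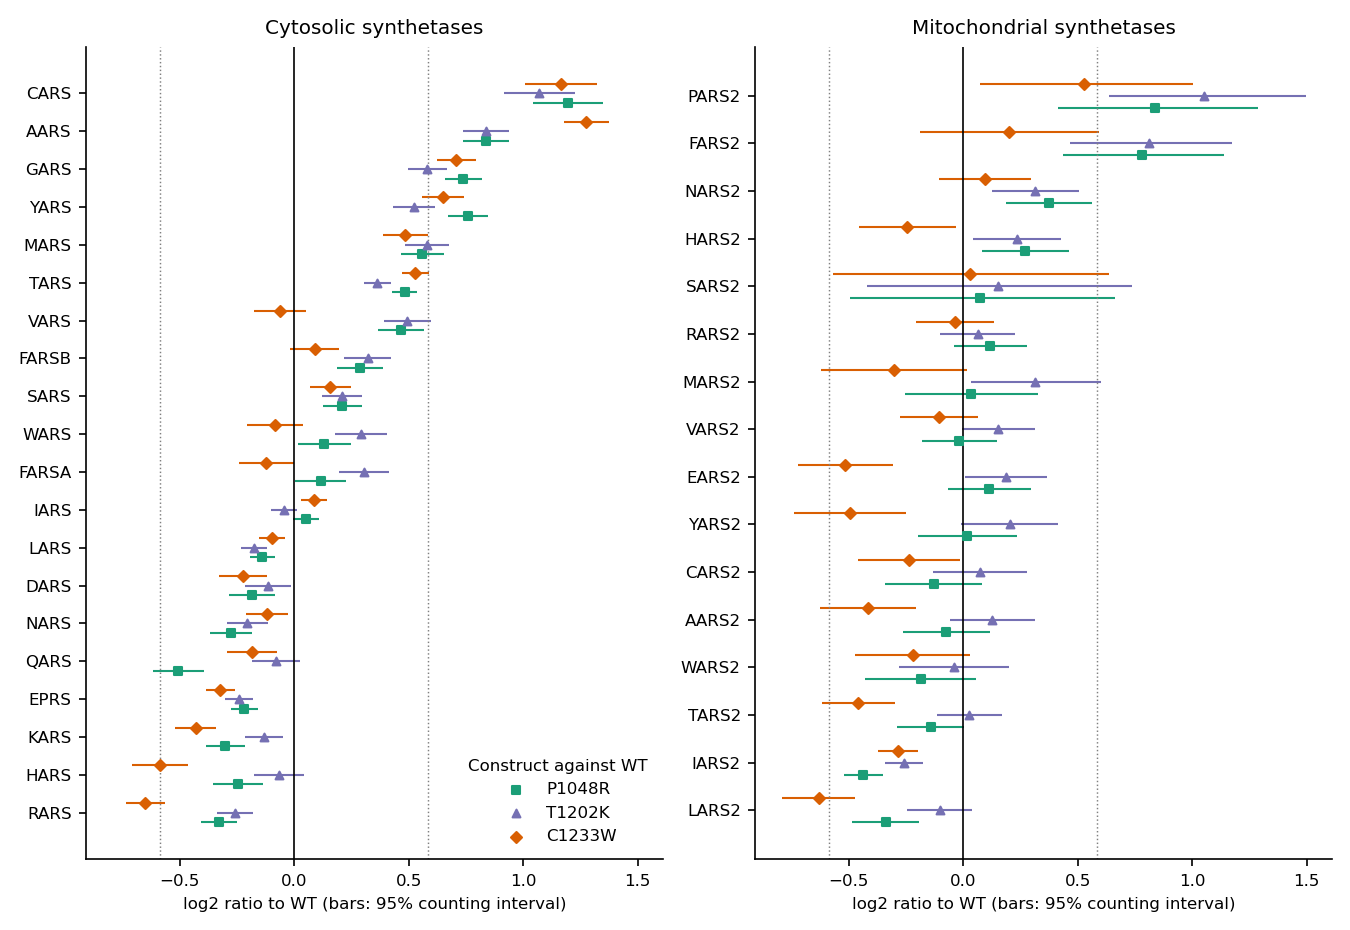
Log2 ratio of each mutant library to WT for each cytosolic (left) and mitochondrial (right) synthetase, with bars for the 95% counting interval and dotted lines at 1.5-fold; 1 library per construct. CARS and AARS have all 3 points beyond the right dotted line, RARS and HARS have the C1233W point beyond the left one, and among mitochondrial genes PARS2 and FARS2 have the P1048R and T1202K points beyond the right one.

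Grouped by whether ATF4 is known to act on them, the cytosolic genes differed in their lowest library. The 13 listed targets summed to 3238 CPM in WT, 3845 in P1048R, 3690 in T1202K and 3841 in C1233W, and the 7 others to 1229, 1083, 1199 and 978 CPM. In scaled CPM, WT was thus the lowest library for the targets and the highest for the others. As a share of all reads, WT was again lowest for the targets, but the others took 0.112% in WT, 0.115% in P1048R, 0.123% in T1202K and 0.0977% in C1233W, so WT was not their highest library by that measure. The median log2 ratio to WT of the targets was 0.47, 0.36 and 0.16 in P1048R, T1202K and C1233W, and that of the others -0.25, -0.08 and -0.22. The 4 cytosolic genes called higher were all among the 13, and the 2 called lower among the 7, where FARSA and FARSB, the subunits of the phenylalanine enzyme, were the members above WT in P1048R. The list was drawn from general knowledge with earlier results of these data known, so these values describe it and are no independent support. On library totals the others' medians were -0.02, 0.10 and -0.09, so their median against WT changes sign in T1202K and nearly vanishes in P1048R.

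The targets did not move as one. EPRS (465, 400, 393 and 372 CPM), LARS (527, 479, 467 and 493) and NARS (202, 167, 176 and 187) were highest in WT, although NARS carries the TGATGCAA core shown above. IARS, which carries it too, was the most even of all 36 genes, with 491, 509, 476 and 521 CPM, a range of 1.10-fold. SARS was at 201 CPM in WT and at 224 to 232 in the mutants, and WARS, the tryptophan enzyme, at 112, 123, 137 and 106. Of the 7 genes with the core, 5 (AARS, CARS, GARS, MARS and TARS) thus had WT as their lowest library. Among all 20 cytosolic genes, 8 were lowest in WT and 8 highest there, and the same was not counted over all kept genes. YARS, also lowest in WT, had no window and was not searched, so a link between core and library order was not tested.

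**Figure D3:**
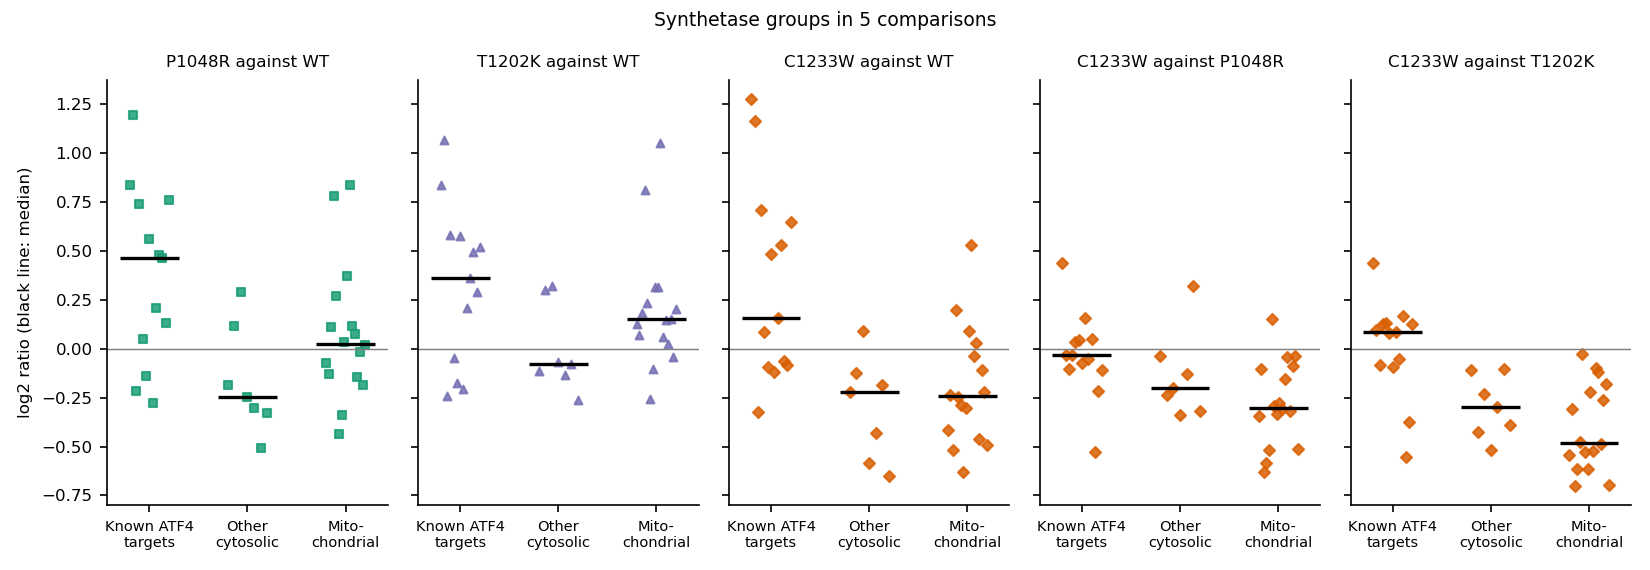
Log2 ratios of the known ATF4 targets (13 genes), the other cytosolic synthetases (7) and the mitochondrial synthetases (16) in 5 comparisons between libraries; each point is a gene, and black lines are medians. The median of the targets lies above that of the others in the 3 comparisons against WT, and all 16 mitochondrial points lie below 0 in C1233W against T1202K.

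Grouped by place in the multisynthetase complex, the genes of the complex lay lower against WT than the rest. This grouping overlaps that by ATF4. AARS, CARS, GARS and YARS are listed targets outside the complex, and DARS, KARS, QARS and RARS are in it and no listed targets. EPRS, IARS, LARS and MARS are targets within it, and the parts of the groupings were not tested. The 8 enzymes of the complex had median log2 ratios to WT of -0.20 in P1048R, -0.12 in T1202K and -0.20 in C1233W, and the 12 outside it 0.38, 0.34 and 0.12. On library totals the complex medians became 0.02, 0.05 and -0.07, and the distance between the groups, which no scaling changes, stayed. Among the 8, RARS in C1233W was the single gene called, and MARS was the single one above WT in each mutant beyond counting error. QARS, the glutamine enzyme of the complex, had 147 CPM in WT, 104 in P1048R, 140 in T1202K and 130 in C1233W, lowest in P1048R (-0.51, -0.62 to -0.39) and higher in T1202K than in P1048R by 0.43 (0.32 to 0.54). KARS, the lysine enzyme, was at 244, 198, 223 and 181 CPM, and DARS, the aspartate enzyme, at 162, 143, 150 and 139, both highest in WT. Of the 3 scaffold genes, AIMP2 was higher than WT in P1048R (0.61, 0.36 to 0.86) and T1202K (0.81, 0.57 to 1.07), with 21.5, 32.8, 37.9 and 21.5 CPM over the 4 libraries, whereas AIMP1 was at 98.3 CPM in WT and at 75.0 to 80.0 in the mutants. The catalytic classes I and II, 10 genes each, had medians of 0.09 and 0.16 in P1048R, 0.12 and 0.26 in T1202K, and -0.07 and -0.01 in C1233W. By their summed reads, class I stood at 0.06, 0.04 and -0.01 against WT and class II at 0.24, 0.23 and 0.25, so the sums differed between the classes more than the medians did. EPRS, with its glutamyl and prolyl activities, was counted wholly in class I, at -0.22, -0.24 and -0.32 against WT. It gave 4350 of the 23508 class I reads in WT, and the classes were not computed without it.

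GC content moved with the cytosolic ratios. Across the 20 cytosolic genes Spearman's rho between transcript GC and the log2 ratio to WT was 0.42 in P1048R, 0.61 in T1202K and 0.38 in C1233W, and across all kept genes 0.10, 0.27 and 0.17. For the 16 mitochondrial genes it was 0.01, 0.14 and 0.04. These are descriptions over genes of the same libraries, and its part in single genes was not tested. With the trend in GC content and transcript length removed, the cytosolic median of T1202K was 0.11 in place of 0.25, and AARS, CARS, GARS and YARS kept each of their calls.

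Among the mitochondrial enzymes, PARS2, the proline enzyme, and FARS2, the phenylalanine enzyme, were lowest in WT. PARS2 (minus strand, chr1:54756898-54764514) had 65, 149, 164 and 104 reads, or 6.95, 12.5, 14.5 and 10.1 CPM. FARS2 (plus strand, chr6:5261044-5829192) had 100, 220, 213 and 127 reads, or 10.7, 18.4, 18.8 and 12.3 CPM. In both, P1048R and T1202K were the high libraries and C1233W lay between them and WT. PARS2 had log2 ratios to WT of 0.84 (0.41 to 1.29), 1.05 (0.64 to 1.5) and 0.53 (0.07 to 1.00), and FARS2 of 0.78 (0.44 to 1.14), 0.81 (0.46 to 1.17) and 0.20 (-0.19 to 0.59). Their intervals are wide, since these are among the genes with the fewest reads of the 36.

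LARS2, the leucine enzyme (plus strand, chr3:45388506-45549421), went the other way, with 81.4 CPM in WT, 64.3 in P1048R, 75.8 in T1202K and 52.5 in C1233W. Its ratio to WT was -0.63 (-0.79 to -0.47) in C1233W and -0.50, short of the rule, on library totals. IARS2 was likewise highest in WT, at 246 CPM, with 182, 205 and 201 in the mutants (-0.44, -0.26 and -0.29), and was lowest in P1048R. Thus 2 of 16 mitochondrial genes were higher than WT and none lower in P1048R and in T1202K, and none was higher and 1 lower in C1233W, or 1 higher (PARS2) and none lower on library totals. Beside the shares of all kept genes given above, these counts are near the background.

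C1233W was the low library of the mitochondrial group. In scaled CPM, 11 of the 16 genes were lowest in C1233W and none highest there, while 10 were highest in T1202K and none lowest there. Such places were not counted over all kept genes, so no background share stands beside them. Some lie within counting error, as for WARS2 in C1233W against P1048R (-0.04, -0.28 to 0.21). Among the 20 cytosolic genes, 8 were lowest in C1233W and 3 highest. Against WT, 12 of the 16 mitochondrial genes were below 0 in C1233W, 8 of them beyond counting error, and 1 (PARS2) was above 0 beyond it, with a median of -0.24. Over all kept genes, 8273 of 16262 were below 0, with 24.8% below and 19.7% above beyond counting error, shares that depend on the reads per gene. Library totals add 0.13 to each ratio to WT in C1233W. VARS2 (-0.11) and RARS2 (-0.04) then lie above WT and are not lowest in C1233W. The intervals of CARS2 (upper end -0.01) and HARS2 (-0.03) then include 0, and that of NARS2 (lower end -0.11) lies above it. Against T1202K, the library where most mitochondrial genes were highest, their difference was larger. There all 16 mitochondrial genes were below 0 in C1233W, 12 of them beyond counting error, where 8513 of the 16262 kept genes were below 0 and 23.4% were so beyond counting error. This median was -0.48 for the mitochondrial genes, -0.09 for the cytosolic and -0.02 for all kept genes. Removing the GC and length trend gave -0.42 for the mitochondrial genes, and library totals gave -0.53.

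The 4 mitochondrial genes called in C1233W against T1202K, all lower, were EARS2, YARS2, MARS2 and FARS2, and 5.96% of all kept genes were that much higher and 2.9% that much lower. EARS2, the glutamate enzyme (minus strand, chr16:23522014-23557731), had 47.3 CPM in WT, 51.2 in P1048R, 53.8 in T1202K and 33.1 in C1233W. YARS2, the tyrosine enzyme (minus strand, chr12:32727490-32755902), had 33.9, 34.3, 39.0 and 24.1 CPM, and MARS2, the methionine enzyme, 18.7, 19.2, 23.3 and 15.2 CPM. In all 3, T1202K was highest and C1233W lowest, and WT and P1048R did not differ beyond counting error. T1202K was above P1048R beyond counting error for MARS2 (0.28, 0.02 to 0.54), but not for EARS2 (0.07, -0.09 to 0.24) or YARS2 (0.18, -0.01 to 0.38). The log2 ratio of C1233W to T1202K was -0.70 for EARS2 (-0.90 to -0.51), -0.70 for YARS2 (-0.93 to -0.47), -0.62 for MARS2 (-0.91 to -0.33) and -0.61 for FARS2 (-0.94 to -0.29). Against P1048R, EARS2 was the one mitochondrial gene called (-0.63, -0.82 to -0.44), beside 7.63% of all kept genes higher and 3.36% lower. In that comparison 15 of 16 mitochondrial genes were below 0 with a median of -0.30, beside 8186 of the 16262 kept genes. The neighbouring gene UBFD1, which shares 370 bases of exon with EARS2 on the opposite strand, had 1831, 1747, 1901 and 1474 reads, also lowest in C1233W, and its part in the EARS2 value was not tested.

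AARS2, TARS2, CARS2, VARS2, WARS2 and RARS2 were also lowest in C1233W in scaled CPM, without a call in any comparison. AARS2 was at 44.5, 42.3, 48.6 and 33.4 CPM and TARS2 at 77.8, 70.4, 79.2 and 56.6. CARS2 was at 37.1, 33.9, 39.0 and 31.5 CPM, and VARS2 at 59.4, 58.6, 66.1 and 55.1. WARS2 (28.9, 25.4, 28.1 and 24.8 CPM) and RARS2 (59.0, 64.0, 61.5 and 57.5) had no ratio to WT beyond counting error. NARS2, the asparagine enzyme, was lowest in WT, at 40.3 CPM in WT, 52.3 in P1048R, 50.2 in T1202K and 43.0 in C1233W, above WT in P1048R (0.37, 0.19 to 0.56) and T1202K (0.31, 0.12 to 0.51) below the 1.5-fold limit. SARS2, with 46 to 62 reads, did not differ between any libraries beyond counting error. T1202K against P1048R gave no call in either compartment (1.69% of all kept genes higher and 1.66% lower), with medians of 0.17 for the mitochondrial and 0.02 for the cytosolic genes.

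The ratio of the cytosolic to the mitochondrial gene for the same amino acid does not depend on how libraries are scaled. AARS had 2.83 reads per AARS2 read in WT, 5.33 in P1048R, 4.64 in T1202K and 9.15 in C1233W. In log2 this ratio was above that of WT by 0.91 (0.70 to 1.12), 0.71 (0.50 to 0.92) and 1.69 (1.46 to 1.92). CARS had 1.34, 3.37, 2.68 and 3.55 reads per CARS2 read, YARS 4.86, 8.12, 6.06 and 10.7 per YARS2 read, and TARS 5.51, 8.51, 6.97 and 10.9 per TARS2 read. In these 4 pairs WT had the lowest ratio and C1233W the highest. For CARS and CARS2, however, C1233W and P1048R did not differ beyond counting error (0.08, -0.16 to 0.31).

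Other pairs leaned the opposite way. RARS had 4.72 reads per RARS2 read in WT and 3.46, 3.78 and 3.09 in the mutants, and NARS 5.02 per NARS2 read in WT and 3.20, 3.50 and 4.33. Over the 13 amino acids with 1 gene of each kind, the ratio in P1048R was above that of WT beyond counting error for 9 and below it for 3, with a median log2 difference of 0.49. In T1202K it was above for 7 and below for 3 (median 0.26), and in C1233W above for 7 and below for 2 (median 0.37). Against T1202K, C1233W had the higher ratio for 8 pairs and the lower for 2. Ratios of other gene pairs were not counted, so no background share stands beside these counts. The 2 subunit genes of the cytosolic phenylalanine enzyme kept a ratio of 0.868, 0.770, 0.858 and 0.750 FARSA reads per FARSB read, a narrower range than any pair but SARS and SARS2.

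**Figure D4:**
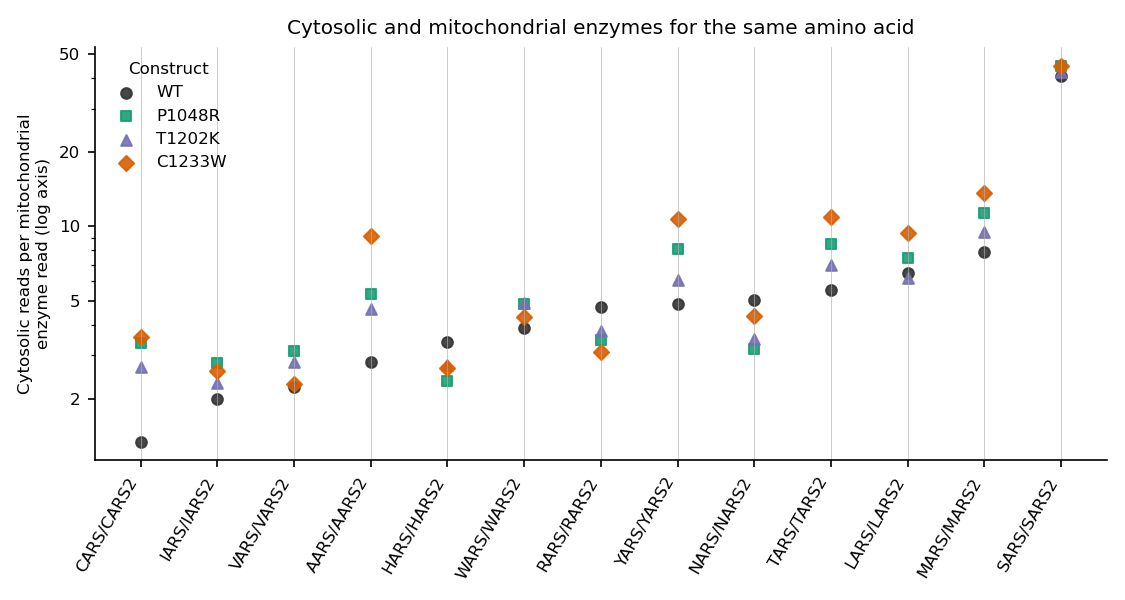
Reads of the cytosolic gene per read of the mitochondrial gene for the same amino acid in each library (log axis), 13 pairs ordered by their WT value, 1 point per library. In the AARS, CARS, YARS, TARS and MARS pairs the WT point is lowest and the C1233W point highest, and in the HARS, RARS and NARS pairs the WT point is highest. Within counting error are C1233W and P1048R in the CARS and MARS pairs, WT and T1202K for MARS, and WT and C1233W for NARS.

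HARS and HARS2 are neighbours, transcribed away from each other on chromosome 5. Their RefSeq starts lie at 140691370 (HARS, minus strand) and 140691455 (HARS2, plus strand), and the 84 bases between them, chr5:140691371-140691454 in GRCh38.p14 on the plus strand, are shown because a single short stretch serves as upstream sequence for both.
HARS to HARS2: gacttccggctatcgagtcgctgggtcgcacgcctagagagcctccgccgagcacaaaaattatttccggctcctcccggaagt
Its GC content is 59.5%, and the promoter windows of neither gene hold TGATGNAA. HARS2 had 40.4 CPM in WT, 48.8 in P1048R, 47.6 in T1202K and 34.1 in C1233W, beside 137, 116, 131 and 91.5 for HARS. Both genes were lowest in C1233W, whereas P1048R and T1202K lay above WT for HARS2 and, beyond counting error in P1048R alone, below it for HARS. HARS gave 3.40 reads per HARS2 read in WT and 2.37, 2.76 and 2.68 in the mutants, a log2 difference from WT of -0.52 (-0.73 to -0.30), -0.30 (-0.52 to -0.08) and -0.34 (-0.58 to -0.10). The genes share 437 bases of exon on opposite strands, 5.56% of HARS and 11.7% of HARS2, with the strand setting of the counting not given in the sources used here.

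Overlap of this kind touches 20 of the 36 genes, 17 of them with a gene on the opposite strand. YARS shares 396 bases with S100PBP, which had 523, 977, 732 and 714 reads and so was also lowest in WT. MARS shares 355 bases with DDIT3, which had 93, 134, 117 and 214 reads, few beside MARS. CARS shares 205 bases with CARS-AS1, which had at most 6 reads in any library. On the same strand, GTF2H4 overlaps 22% of the VARS2 exon bases, and it had 12, 23, 16 and 11 reads. The part of overlapping genes in the member values was not tested.

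Genes around the synthetases were counted by lists. Of 18 genes of the ATF4 axis outside the synthetases, 7 were higher than WT in P1048R, 6 in T1202K and 15 in C1233W, and none lower, beside 10.7%, 7.96% and 8.77% of all kept genes higher. ATF4 itself had 240 CPM in WT, 272 in P1048R, 272 in T1202K and 428 in C1233W (0.83, 0.76 to 0.91, against WT). ASNS, asparagine synthetase, had 2.57, 2.93, 3.36 and 15.1 CPM, CHAC1, a glutathione-degrading enzyme, 3.00, 4.69, 4.68 and 16.9, and SLC7A11, the cystine transporter, 16.5, 40.7, 33.3 and 112. For these 3, C1233W stood far above the other libraries, whereas of the 36 synthetases AARS alone was higher in C1233W than in both other mutants beyond counting error. TRIB3 (10.3, 27.1, 26.5 and 23.4 CPM) and SLC3A2, the heavy chain of amino acid transporters (102, 221, 239 and 219), were instead above WT by similar amounts in the 3 mutant libraries, as CARS was. DDIT3, ATF3, SESN2 and VLDLR were the others of the list past 2-fold, all 4 in C1233W, with ATF3 in P1048R as well.

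Selenocysteine is made on its tRNA after a serine has been attached. The list held 3 genes, 2 for its making and 1 for its use in elongation, and is not the whole route. All 3 were above WT in each mutant beyond counting error. EEFSEC, the elongation factor for selenocysteine, had 16.7 CPM in WT, 36.9 in P1048R, 39.8 in T1202K and 24.7 in C1233W, log2 ratios of 1.14 (0.88 to 1.42), 1.25 (0.99 to 1.53) and 0.56 (0.27 to 0.86). SEPSECS, which completes selenocysteine, had 15.2, 28.1, 23.8 and 24.3 CPM, and PSTK, the kinase before it, 17.9, 33.1, 23.8 and 22.0. By the 1.5-fold rule 3 of the 3 were higher in P1048R, 2 in T1202K and 1 in C1233W, beside the same shares of all kept genes (10.7%, 7.96% and 8.77%).

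Of 16 genes for tRNA maturation and export, 4 were lower than WT in C1233W and none higher, beside 4.94% and 8.77% of all kept genes. Those 4 were ELAC2, which trims the tRNA 3′ end, and POP1, POP4 and RPP40, subunits of ribonuclease P, which trims the 5′ end. POP1 had 28.5 CPM in WT, 20.9 in P1048R, 26.8 in T1202K and 13.6 in C1233W (-1.06, -1.37 to -0.76). The tRNA exporter XPOT was level, with ratios of 0.09, 0.03 and 0.05. Of 6 mitochondrial elongation and initiation factors, 1 was lower than WT in P1048R and in T1202K (MTIF3 in both), and 2 in C1233W (GFM1 and MTIF2), beside 8.99%, 5.29% and 4.94% of all kept genes lower. None of the 9 genes of eIF2 and its kinases was called against WT. The shares of all kept genes lower were those just given, and 10.7%, 7.96% and 8.77% were higher. Counting any size, the interval lay below 0 for 7 of the 9 in P1048R, 6 in T1202K and 4 in C1233W, and above 0 for 2, 1 and 1. Over all kept genes 27.1%, 22.3% and 24.8% lay below and 23.9%, 22.2% and 19.7% above, shares that depend on the reads per gene. EIF2AK4, the sensor of uncharged tRNA, stood at -0.36, -0.28 and -0.33. None of the 4 genes that make mitochondrial glutaminyl- and formylmethionyl-tRNA was called either, GATC being closest in C1233W at -0.57 (-0.73 to -0.40).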

How the data were processed

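The authors deposited whole-number read counts per gene for each of the 4 libraries. Per the submitters' processing notes, Trim Galore, HISAT2 and featureCounts were used with build hg38; tool versions, annotation release, strand setting and handling of multiply aligned reads were not stated. Library sizes were scaled by TMM in edgeR 4.0.16 (R 4.3.3). Genes reaching 1 CPM anywhere were kept. Log2 ratios used scaled counts plus 0.5, with 95% Clopper-Pearson counting intervals; levels have exact Poisson intervals and pair ratios Wald intervals. Calls needed 1.5-fold (or 2-fold) and an interval excluding 0. The calculation was tested on simulated data. Alternatives were DESeq2 1.42.0 size factors, total counts, TMM without PBRM1, other filters and pseudocount, and removal of a GC and length trend. Coordinates, exon lengths and GC came from GENCODE release 29, promoter windows from RefSeq.

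Members and lists were chosen with earlier results of these data known. Members called in any comparison, the highest and lowest per kilobase, and those with a special role are named with values per library. Neighbours in the lists described above are counted, and named past 2-fold against WT. Cytosolic elongation factors and editing and deacylation genes were also listed, without a count given. The former summed to 8385, 5605, 6860 and 7880 CPM in WT, P1048R, T1202K and C1233W, and the latter to 109, 93.1, 93.9 and 84.4. Of the 7 elongation factors listed 6 had reads, with EEF1G at 0 in every library, so their sum lacks it. Why EEF1G had no reads was not tested. Where others are named, it was after their values were seen. For the tRNA maturation list, the counts of P1048R and T1202K are not reported here.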

Additional observations from a re-analysis of the deposited data

How the results depend on the processing

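No paired analysis was possible because each construct had 1 library, and for the same reason no library could be left out. All 7 alternatives kept the calls made for AARS, CARS, GARS, YARS, PARS2 and FARS2 against WT and of EARS2, YARS2 and MARS2 in C1233W against T1202K. Using total counts added 0.22, 0.18 and 0.13 to every log2 ratio to WT in P1048R, T1202K and C1233W, moved the medians of all genes to 0.19, 0.17 and 0.13, and changed the sign of 8, 8 and 7 of the 36 members. The cytosolic medians became 0.35, 0.43 and 0.0585 against WT and -0.16 in C1233W against P1048R. The cytosolic genes called became 7 in P1048R and 6 in T1202K against WT, and 1 (VARS, lower) in C1233W against either other mutant. The mitochondrial genes called lower in C1233W against P1048R became 4. All kept genes split into 3043 higher and 573 lower in P1048R (main scaling 1735 and 1462), 2334 and 426 in T1202K (1295 and 861), 2082 and 394 in C1233W (1426 and 803), 935 and 924 in C1233W against P1048R (1240 and 547), and 837 and 625 against T1202K (970 and 472). With DESeq2 size factors, 5 cytosolic genes were called in P1048R against WT, all higher, beside 11.9% of all kept genes higher and 7.58% lower. In T1202K against WT 4 were called, all higher, GARS and MARS added (8.63% and 4.87% of all kept genes). In C1233W against P1048R 2 mitochondrial genes were called, both lower, FARS2 added (7.16% and 3.84%). Removing the GC and length trend gave a cytosolic median of 0.11 in T1202K against WT and took FARS2, at -0.57, below the limit in C1233W against T1202K. Differences between a cytosolic and a mitochondrial median do not depend on the scaling. Depth limits SARS2, PARS2, FARS2 and MARS2, which had 46 to 264 reads.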
